A study of Mus musculus with 7 samples.

Results

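Aquaporins are membrane channels that let water, and in some members glycerol or hydrogen peroxide, cross cell membranes along their gradients. In the heart they are found on the endothelium of small vessels, on red blood cells passing through, on cardiomyocytes and on fat cells. The genes described here are *Aqp1*, *Aqp4*, *Aqp7*, *Aqp8* and *Aqp11*, 5 of the 20927 genes counted in mouse left ventricles. They were chosen on measured values of these same hearts, with differences between the genotypes already known. Their differences between A178D and WT hearts are therefore a description, and no test of them is reported.

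RNA sequencing was done on left ventricles of 3 WT mice (replicates 1, 3 and 4) and 4 mice homozygous for the titin missense change A178D (replicates 1 to 4), with 1 library per heart. Titin is the giant protein that spans the sarcomere from Z-disc to M-band, and the mutated residue lies near its Z-disc end. Both genotypes are labelled C57BL/6J. The mutation was made by CRISPR-Cas9 editing of C57BL/6N embryonic stem cells, and the mice were then backcrossed to C57BL/6J. Sequence of the stem cell substrain or of an edited clone that travelled with the *Ttn* allele cannot be told apart from the mutation. No treatment is labelled, and the age and sex of these 7 mice are not given in the sources used here. Since the labels only number the replicates, p-values below measure the spread between these libraries.

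The WT libraries held from 41102868 to 54245530 counts (median 51797208) and the A178D libraries from 33080675 to 52345529 (median 41398874). The markers of the labelled tissue were abundant. The 10 cardiomyocyte genes listed (such as *Myh6*, *Tnnt2* and *Mb*) summed to between 117200 and 130900 CPM, where CPM is a gene's count relative to its library total after TMM scaling. Among low counts of 1 to 20, only 17.6 to 20.3% were odd numbers, so that most fragments appear to have been counted once for each end. A low count thus stands for fewer molecules than it says.

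WT replicate 1 and A178D replicate 4 stood apart from the other libraries in how counts changed with transcript length. In WT replicate 1 the 10% of genes with the shortest transcripts deviated on average by -0.137 (log2) from the mean of all hearts, and the 10% with the longest by 0.107. In A178D replicate 4 the corresponding deviations were 0.173 and -0.255. In the other 5 libraries they lay between -0.038 and 0.064. The log2 fold changes of the 5 aquaporins and the calls and medians of the gene lists are given below with all hearts and in the 5 hearts left without these libraries. Shares and profiles are given over all 7 hearts.

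Over all 13894 genes tested, edgeR's quasi-likelihood test called 327 at a Benjamini-Hochberg adjusted p under 0.05 (2.35%), 145 of them higher in A178D (1.04%) and 182 lower (1.31%). An unadjusted p under 0.05 was reached by 2326 (16.7%) in edgeR, 16.9% in DESeq2 and 16.9% in limma-voom, and in edgeR by 19.3% of 13736 genes when WT replicate 1 and A178D replicate 4 were left out. The numbers of list genes under this threshold, given below, stand beside these shares. In 2242 genes (16.1%) the hearts of the genotypes did not overlap in CPM. All 5 aquaporins passed the filter on low counts. They were part of this fit, but their own calls are not reported. In 1 of the 5, *Aqp8*, the hearts of the genotypes did not overlap. Since the 5 genes were chosen on this contrast, nothing was read from these counts. Without WT replicate 1 and A178D replicate 4 together, 353 genes were called higher and 407 lower. Omitting WT replicate 3 gave 22 higher and 31 lower, WT replicate 4 gave 40 and 42, A178D replicate 1 gave 40 and 50, and A178D replicate 3 gave 78 and 112. Omitting A178D replicate 2 gave 115 lower.

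To compare the levels of different genes, CPM was divided by the exonic length of each gene in kilobases. On this scale *Aqp1* was by far the most abundant aquaporin, at 223 ± 41.5 in WT (SD, n = 3) and 162 ± 23.3 in A178D hearts (SD, n = 4). It ranked 219 of 20858 genes with a known length. *Aqp7* came next, at 10.6 ± 1.11 in WT and 11.6 ± 0.695 in A178D hearts. The mean of all 7 hearts was 16.8 times higher for *Aqp1* than for *Aqp7*.

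The order of the next pair depended on genotype. In WT hearts the per-length levels of *Aqp4* (1.2 ± 0.506) and *Aqp8* (1.13 ± 0.363) did not differ beyond their spread. In A178D hearts *Aqp8* was at 4.36 ± 0.834 and *Aqp4* at 0.59 ± 0.305, and every heart had more *Aqp8* than any had *Aqp4*. *Aqp11* was lowest of the 5, at 0.128 ± 0.0392 in WT and 0.148 ± 0.0353 in A178D hearts, with overlapping values. Its level also overlapped those of *Aqp2* and *Aqp6*, which followed it in the order.

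**Figure D1:**
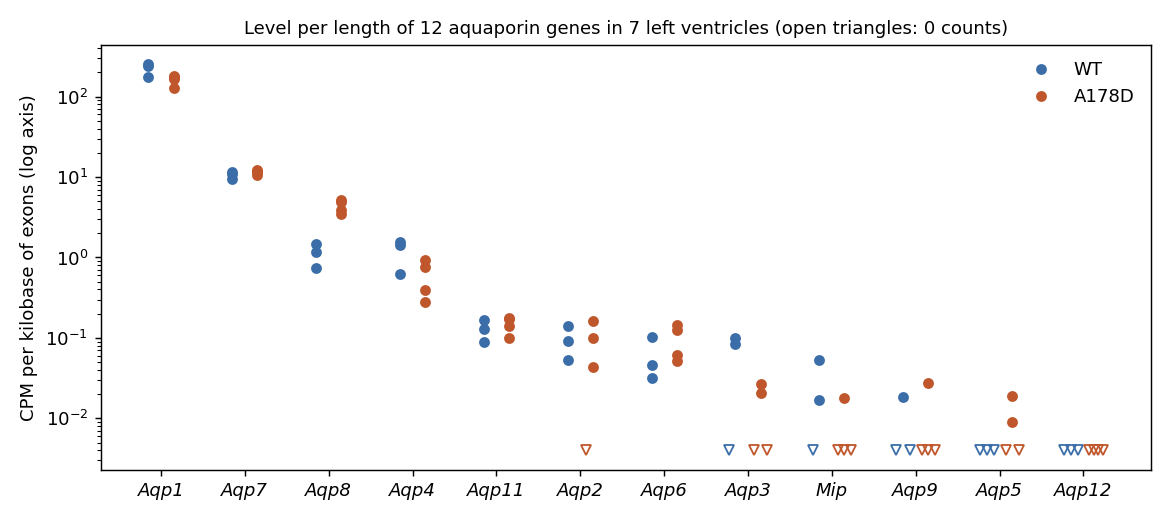
Level of 12 aquaporin genes in each of 7 left ventricles, as CPM per kilobase of exons on a log axis, with open triangles for hearts with 0 counts. *Aqp1* lies above all others, and *Aqp8* is the 1 gene among the 5 described whose WT and A178D points do not overlap.

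*Aqp1* (ENSMUSG00000004655), the water channel of microvascular endothelium and of red blood cells, lies on chromosome 6 from 55336432 to 55348555 on the plus strand (GRCm38). Its level was 463, 670 and 625 CPM in WT replicates 1, 3 and 4. In A178D replicates 1 to 4 it was 439, 337, 457 and 472 CPM. WT replicates 3 and 4 lay above every A178D heart, while WT replicate 1 lay inside the A178D range, so that the genotypes overlapped. The means were 586 ± 109 CPM in WT and 426 ± 61.1 in A178D hearts, a ratio of 0.728, and the log2 fold change was -0.46 (standard error 0.13.) Without WT replicate 1 it was -0.60, without A178D replicate 4 and WT replicate 1 together -0.66, and without WT replicate 3 it was -0.35. After correction of every library for transcript length and GC content it was -0.50. In a bulk sample, fewer cells that carry a transcript and less of that transcript in each cell cannot be told apart.

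The 20 endothelial genes listed had all been tested. None was called higher, and 2 were called lower, *Flt1* and *Sox17*. DESeq2 called 1 higher and 3 lower, limma-voom 0 and 2, and 5 genes had an unadjusted p under 0.05 in edgeR. The median log2 fold change of the list was -0.104, with 14 of 20 below 0, beside 0.002 over all tested genes, of which 50.5% were above 0. In the 5 hearts without WT replicate 1 and A178D replicate 4, edgeR called 2 higher (*Kdr* and *Cldn5*) and 3 lower (*Flt1*, *Sox17* and *Gpihbp1*), 13 had an unadjusted p under 0.05 and the median was -0.145. With single hearts omitted the median ranged from -0.062 (without A178D replicate 1) to -0.149 (without A178D replicate 4). The list summed to 2302, 2209 and 2102 CPM in the WT hearts and to 2030, 2022, 2147 and 2106 CPM in the A178D hearts. These sums overlapped, and the ratio of their means was 0.942, nearer to 1 than that of *Aqp1*. Its most abundant gene per length, *Eng*, was at 248 ± 6.77 CPM in WT and 230 ± 19.5 in A178D hearts, and no defining marker was at 0. The part of endothelial content in the *Aqp1* values was not tested.

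*Flt1*, which encodes a VEGF receptor, was at 163 ± 3.37 CPM in WT and 128 ± 8.38 in A178D hearts (edgeR log2 fold change -0.35, standard error 0.07, adjusted p = 0.02), lower in 4 of 4 A178D hearts than in any WT heart. This call was lost on leaving out WT replicate 3 (adjusted p = 0.102), WT replicate 4 (0.0934), A178D replicate 1 (0.0584) or A178D replicate 2 (0.0617). *Sox17*, a transcription factor of arterial endothelium, had a log2 fold change of -0.47 (standard error 0.10, edgeR adjusted p = 0.0317). When single hearts were omitted, it was called in 1 of 7 fits, the one without A178D replicate 4, and the other 6 gave adjusted p from 0.0574 to 0.149.

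For each 1000 CPM of the endothelial list, which does not include *Aqp1*, there were 201, 303 and 297 CPM of *Aqp1* in the WT hearts. In the A178D hearts there were 216, 167, 213 and 224 CPM. On this scale too, WT replicates 3 and 4 were high and WT replicate 1 lay among the A178D hearts.

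Red blood cells carry *Aqp1* protein but little RNA. Of 10 genes listed for them 8 had an entry and 6 were tested, and edgeR, DESeq2 and limma-voom each called 0, with 1 gene at an unadjusted p under 0.05. The list summed to 106.9, 114.9 and 106.7 CPM in WT hearts and to 130.3, 107.2, 94.53 and 154.2 CPM in A178D hearts. The globin gene *Hba-a2* was its most abundant per length, and *Epb42* and *Rhag* had 2 counts each in 1 WT heart and 0 in all others. *Slc4a1*, the red cell anion exchanger, was at 0.505 ± 0.0893 CPM in WT and 0.2 ± 0.132 in A178D hearts without overlap and did not pass (log2 fold change -1.31, edgeR adjusted p = 0.231). The sums overlapped, with the highest in A178D replicate 4, and the median log2 fold change of the 6 genes was 0.107. In the 5 hearts it was 0.019 with 0 called and 0 at an unadjusted p under 0.05, and with the length and GC correction it was -0.033. Omitting single hearts gave from 0.021 (without A178D replicate 4) to 0.199 (A178D replicate 2) and 0.21 (A178D replicate 3, with 3 genes at an unadjusted p under 0.05). The part of red cell RNA in the *Aqp1* values was not tested.

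Smooth muscle genes mark the walls of larger vessels. Of 10 listed and tested, 6 were called lower (*Myh11*, *Acta2*, *Tagln*, *Cnn1*, *Lmod1* and *Mylk*) and 0 higher, by edgeR, DESeq2 and limma-voom alike, and 7 had an unadjusted p under 0.05 in edgeR. The median log2 fold change was -0.539. With 1 heart omitted, between 2 and 5 of the 10 were called lower. In the 5 hearts 4 were (*Myh11*, *Acta2*, *Tagln* and *Smtn*), with a median of -0.423. *Acta2*, smooth muscle actin, fell from 191 ± 19.3 to 126 ± 13.1 CPM (log2 fold change -0.59, standard error 0.09, edgeR adjusted p = 0.00587), and it and *Tagln* were called in 7 of 7 fits that left out 1 heart. *Myh11* was not called without WT replicate 3 (adjusted p = 0.0501) or WT replicate 4 (0.0547). *Mylk* was called in 2 of these fits, without A178D replicate 3 and without A178D replicate 4, with adjusted p from 0.0631 to 0.111 in the others. *Cnn1* was called in 1, without A178D replicate 4 (0.0591 to 0.109 in the others), and *Lmod1* in 1, without A178D replicate 2 (0.0573 to 0.142).

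The smooth muscle list summed to 3351, 3420 and 3331 CPM in WT hearts and to 3022, 3262, 3285 and 3741 CPM in A178D hearts. Its most abundant gene was *Des*, which cardiomyocytes also express, and it set most of this sum (2450 ± 48.3 and 2600 ± 291 CPM). The sums overlapped and none of the markers was at 0. Taken singly, *Myh11*, *Acta2*, *Tagln*, *Cnn1*, *Lmod1* and *Mylk* did not overlap between the genotypes. The part of smooth muscle content in the *Aqp1* values was not tested.

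**Figure D2:**
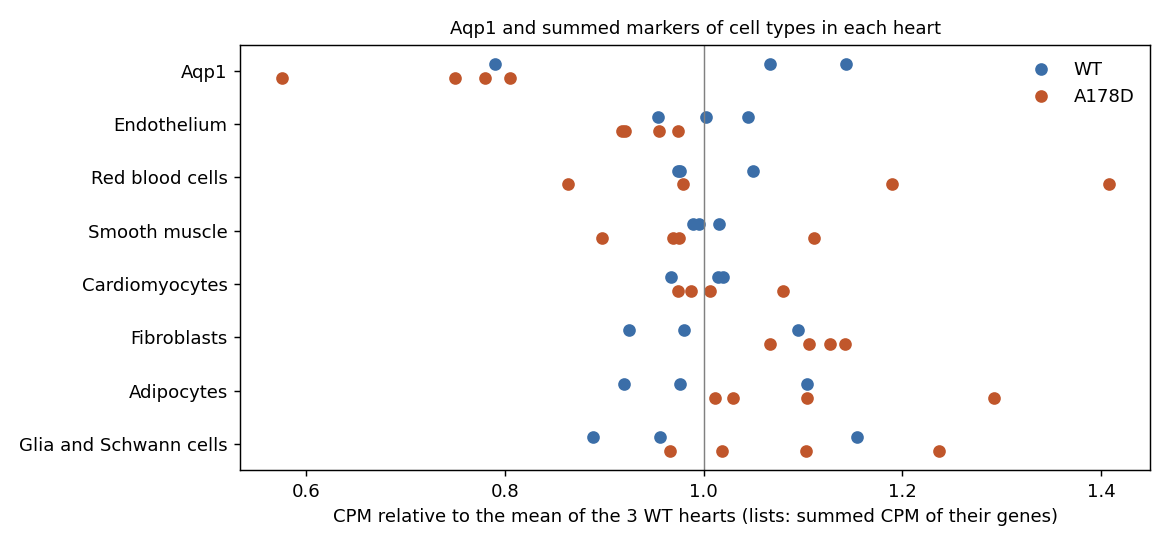
*Aqp1* and the summed CPM of 7 lists of cell type markers in each heart, relative to the mean of the 3 WT hearts (line at 1). *Aqp1* lies low in all 4 A178D hearts and in WT replicate 1, and the sums of all 7 lists overlap between the genotypes. *Des* sets most of the smooth muscle sum and *Gsn* is the largest part of the fibroblast sum. Overlap of these sums does not show that their other genes overlap.

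*Aqp4* (ENSMUSG00000024411), the main water channel of astrocytes and also described in mouse cardiomyocytes, lies on chromosome 18 from 15389496 to 15410982 on the minus strand (GRCm38). It was scarce, at 3.88, 9.67 and 8.96 CPM in WT replicates 1, 3 and 4. In A178D replicates 1 to 4 it was at 2.48, 5.81, 4.71 and 1.73 CPM. WT replicates 3 and 4 were again above all A178D hearts, and WT replicate 1 again fell within their range. The log2 fold change was -1.0 (standard error 0.35), from means of 7.5 ± 3.16 and 3.68 ± 1.9 CPM. Omitting WT replicate 1 gave -1.31, omitting WT replicate 3 gave -0.77 and omitting A178D replicate 4 gave -0.78, with -1.09 without WT replicate 1 and A178D replicate 4 together.

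The coefficient of variation of *Aqp4* between hearts of a genotype was 42.1% in WT and 51.6% in A178D hearts. The median tested gene had 8.75 and 9.87%. The gene AC133525.2 overlaps *Aqp4* on the opposite strand in the annotation and has no entry in the count table. The libraries were stranded, but whether counting used the strand is not given in the sources used here, so reads of the pair cannot be told apart.

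At the membrane, *Aqp4* protein is held by the dystrophin complex. Of 15 genes listed for this complex 14 were tested, and edgeR, DESeq2 and limma-voom each called 0, with 0 at an unadjusted p under 0.05 in any of them. Their median log2 fold change was -0.043, and in the 5 hearts it was -0.033 with 0 called and 1 at an unadjusted p under 0.05. Leaving out single hearts gave from -0.088 (A178D replicate 1) to 0.002 (WT replicate 4). *Kcnj10*, the potassium channel that accompanies *Aqp4* in glia, was at 0.432 ± 0.185 CPM in WT and 0.407 ± 0.183 in A178D hearts, and *Mlc1* had 0 counts everywhere. The most abundant gene per length was *Sgca*, at 188 ± 8.19 and 187 ± 21.2 CPM.

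*Aqp4* is also known from glia and from fast skeletal muscle fibres. Of 8 glial and Schwann cell genes 7 were tested and edgeR and limma-voom called 0, with 0 at an unadjusted p under 0.05. DESeq2 called 0, with 1 at an unadjusted p under 0.05. The glial sums were 22.68, 29.47 and 24.41 CPM in WT and 24.66, 25.99, 28.16 and 31.56 CPM in A178D hearts. The median log2 fold change was 0.374, against 0.168 in the 5 hearts (0 called, 1 at an unadjusted p under 0.05) and from 0.236 (without A178D replicate 4) to 0.535 (without WT replicate 3) with single hearts omitted, and *Cdh19* was most abundant. The astrocyte marker *Gfap* was near 0, at 0.157 ± 0.0135 CPM in WT and 0.157 ± 0.116 in A178D hearts.

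Of 10 fast fibre genes 6 were tested and all 3 tools called 0, with 1 at an unadjusted p under 0.05 in edgeR and DESeq2 and 2 in limma-voom. Their sums were 32.72, 37.1 and 32.71 CPM in WT and 40.05, 36.03, 37.11 and 35.89 CPM in A178D hearts, mostly from *Mybpc2*. Their median log2 fold change was -0.01, and in the 5 hearts -0.08 with 0 called and 1 at an unadjusted p under 0.05. Its sign changed with the hearts used, from -0.083 without A178D replicate 3 to 0.167 without WT replicate 3, and the replicate block gave 0.138. *Myh4*, the fast myosin, had 3 counts in WT hearts in all and 0 in A178D hearts. *Myh2*, another fast myosin and too low to be tested, was at 0.194 ± 0.0976 and 0.053 ± 0.0282 CPM, without overlap. Of the 6 tested genes, 3 had log2 fold changes above 0 and 3 below. *Tnnt3*, at 0.33 ± 0.16 and 0.653 ± 0.21 CPM (0.98), and *Atp2a1*, at 0.999 ± 0.183 and 1.79 ± 0.608 CPM (0.86), were higher in A178D hearts on average. Both overlapped and were not called. The part of glial or fast fibre RNA in the *Aqp4* values was not tested.

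*Aqp7* (ENSMUSG00000028427), which passes glycerol as well as water and serves fat cells and heart muscle, lies on chromosome 4 from 41033074 to 41048139 on the minus strand (GRCm38). Its level was 32.6, 26.5 and 30.9 CPM in WT replicates 1, 3 and 4. In A178D replicates 1 to 4 it was 30.1, 34.8, 33.3 and 32.6 CPM. All hearts were close together and the genotypes overlapped, with WT replicate 3 the lowest. The log2 fold change was 0.13 (standard error 0.09), from means of 30 ± 3.14 and 32.7 ± 1.97 CPM. Omitting WT replicate 3 gave 0.04, and 0.19 came both from omitting WT replicate 1 and from omitting A178D replicate 4 with it.

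Genes of glycerol and triglyceride handling were measured beside *Aqp7*. Of 18 listed, 17 were tested, and edgeR called 3 higher and 0 lower, as did DESeq2 and limma-voom, with 8 genes at an unadjusted p under 0.05 in each. The median log2 fold change was 0.136, with 12 of 17 above 0. The same 3 were called higher and 0 lower in the 5 hearts, with 10 at an unadjusted p under 0.05 and a median of 0.1. Single omissions gave medians from 0.092 (WT replicate 3) to 0.177 (WT replicate 4). The most abundant, the lipase gene *Lpl*, was at 5380 ± 429 CPM in WT and 5020 ± 113 in A178D hearts. *Gk*, the kinase that takes glycerol into metabolism, was at 50 ± 3.48 and 55.6 ± 5.6 CPM and did not pass (log2 fold change 0.15, standard error 0.09).

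The 3 genes that rose were *Plin2*, *Plin5* and *Gpd1*. *Plin2*, a lipid droplet protein, rose from 65.1 ± 8.62 to 90.8 ± 4.14 CPM (log2 fold change 0.48, standard error 0.09, edgeR adjusted p = 0.0144), and its adjusted p was 0.089 without WT replicate 3. *Plin5*, the droplet protein of oxidative muscle, rose from 154 ± 19.4 to 210 ± 9.5 CPM (log2 fold change 0.45, standard error 0.09, edgeR adjusted p = 0.0162). This adjusted p was 0.0872 without WT replicate 3 and 0.0562 without A178D replicate 1. *Gpd1*, the cytosolic glycerol 3-phosphate dehydrogenase, rose by 0.31 (standard error 0.07, edgeR adjusted p = 0.0359). Its call was kept without WT replicate 1 and without A178D replicate 4, and the other 5 fits gave adjusted p from 0.0534 to 0.195. All 3 were higher in 4 of 4 A178D hearts than in any WT heart. Related genes with the opposite sign did not pass, among them the droplet protein gene *Plin4*, at 301 ± 56.5 and 248 ± 9.93 CPM (log2 fold change -0.28), and the mitochondrial glycerol 3-phosphate dehydrogenase gene *Gpd2*, at 22.2 ± 0.664 and 19.4 ± 1.1 CPM (-0.20). Neither overlapped between the genotypes.

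Fat cells in the tissue would also carry *Aqp7*. Of 10 adipocyte genes 7 were tested, and edgeR, DESeq2 and limma-voom each called 0, with 0 at an unadjusted p under 0.05. Their sums were 529.6, 562.1 and 635.5 CPM in WT and 592.5, 582.5, 635.8 and 744.3 CPM in A178D hearts, and the median log2 fold change was 0.01. In the 5 hearts it was -0.028, with 0 called and 0 at an unadjusted p under 0.05, and single omissions gave from -0.062 (A178D replicate 4) to 0.101 (WT replicate 4). *Fabp4*, which endothelium also expresses, gave most of this, at 514 ± 45 and 576 ± 74.2 CPM. *Adipoq*, which defines fat cells, was near 0, at 0.235 ± 0.181 and 0.189 ± 0.117 CPM, and *Lep* had 0, 2 and 10 counts in WT hearts and 0 in A178D hearts. *Adrb3*, too low to be tested, was at 0.145 ± 0.043 and 0.0454 ± 0.0314 CPM, without overlap.

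*Aqp8* (ENSMUSG00000030762), a channel for water and hydrogen peroxide known from liver, pancreas and gut, lies on chromosome 7 from 123462291 to 123468004 on the plus strand (GRCm38). It had 122, 102 and 48 counts in WT replicates 1, 3 and 4, or 2.32, 1.87 and 1.18 CPM. In A178D replicates 1 to 4 it had 330, 286, 262 and 253 counts, or 8.18, 5.43, 6.14 and 7.81 CPM. All 4 A178D hearts exceeded all 3 WT hearts, and the lowest A178D value was that of replicate 2. The means were 1.79 ± 0.574 and 6.89 ± 1.32 CPM, a ratio of 3.85, and the log2 fold change was 1.92 (standard error 0.22.)

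The value moved little with single hearts. It ranged from 1.71 without WT replicate 4 to 2.15 without WT replicate 1, and it was 2.08 without WT replicate 1 and A178D replicate 4 together.

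Genes of epithelial tissues that express *Aqp8* strongly were examined beside it. Of 12 liver, pancreas and gut genes 2 were tested (*Ttr* and *Cela1*), and edgeR, DESeq2 and limma-voom each called 0, with 0 at an unadjusted p under 0.05. Their median log2 fold change was 0.168, and in the 5 hearts -0.129 with 0 called and 0 at an unadjusted p under 0.05. Single omissions gave from -0.051 (A178D replicate 4) to 0.38 (A178D replicate 1). *Ttr* was the most abundant per length, at 0.375 ± 0.126 and 0.302 ± 0.145 CPM. The 12 genes together summed to 0.8562, 1.045 and 1.723 CPM in WT hearts and 1.066, 1.67, 1.171 and 2.162 CPM in A178D hearts. *Prss2* was at 0 in all hearts, *Epcam* in all but WT replicate 4 (2 counts) and *Car1* in all but A178D replicate 1 (2 counts), and *Alb* averaged 0.143 ± 0.218 and 0.0922 ± 0.0872 CPM. *Krt8*, a keratin of simple epithelia that was too low to be tested, was at 0, 0.0734 and 0.0984 CPM in WT and 0.198, 0.266, 0.187 and 0.309 CPM in A178D hearts. These values did not overlap, and they rest on at most 14 counts in a heart. *Krt20* had 2 counts in WT and 12 in A178D hearts in all, 10 of them in A178D replicate 2, and overlapped. *Aqp8* exceeded the sum of the 12 genes in all A178D hearts and in WT replicates 1 and 3, but not in WT replicate 4. The part of epithelial RNA in the *Aqp8* values was not tested.

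Of 6 genes of the epicardial layer 1 was tested, *Wt1*, at 4.46 ± 0.674 CPM in WT and 3.66 ± 0.374 in A178D hearts (log2 fold change -0.29). The 3 tools called 0, with 0 at an unadjusted p under 0.05, as did edgeR in the 5 hearts (log2 fold change -0.22, and from -0.357 without WT replicate 4 to -0.154 without WT replicate 1), and the sums (5.308, 4.292 and 4.11 against 3.321, 3.719, 3.725 and 4.416 CPM) overlapped. *Upk1b* was at 0 in all hearts but A178D replicate 4 (2 counts).

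**Figure D3:**
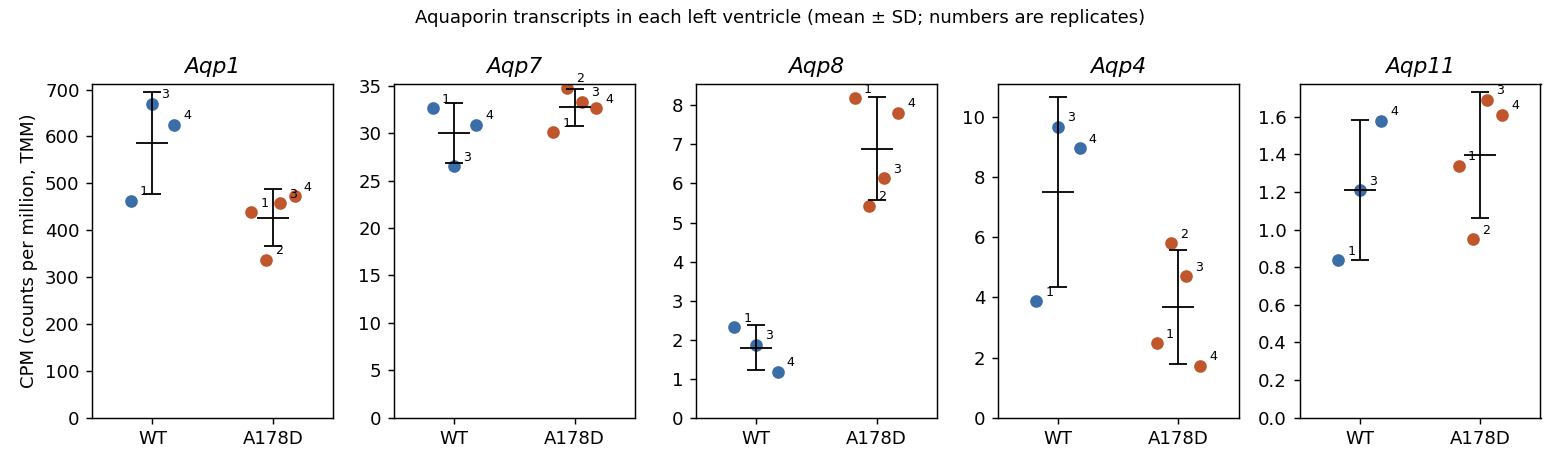
Level of each of the 5 aquaporins in CPM in every left ventricle, with the mean and SD of each genotype and the replicate number beside each point. *Aqp8* is the gene without overlap, and WT replicate 1 sits among the A178D hearts for *Aqp1* and *Aqp4*.

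*Aqp11* (ENSMUSG00000042797), an aquaporin of the endoplasmic reticulum, lies on chromosome 7 from 97724006 to 97738289 on the minus strand (GRCm38). It had 44, 66 and 64 counts in WT replicates 1, 3 and 4, or 0.837, 1.21 and 1.58 CPM. In A178D replicates 1 to 4 it had 54, 50, 72 and 52 counts, or 1.34, 0.949, 1.69 and 1.61 CPM. The genotypes overlapped, with no heart far from the rest. The log2 fold change was 0.21 (standard error 0.30). It was 0.00 on omitting WT replicate 1, 0.44 on omitting WT replicate 4 and -0.07 without WT replicate 1 and A178D replicate 4 together.

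*Aqp8* and *Aqp11* proteins can pass hydrogen peroxide, so genes that make or remove it were examined. All 24 listed were tested, and edgeR called 1 higher (*Prdx6*) and 0 lower, limma-voom the same and DESeq2 2 higher and 0 lower, with 6 at an unadjusted p under 0.05 in edgeR. Of the 24, 17 had values above 0, with a median log2 fold change of 0.074. The median was 0.028 in the 5 hearts, where edgeR called 2 higher (*Prdx6* and *Cat*) and 0 lower with 4 at an unadjusted p under 0.05, and 0.044 with the length and GC correction. Single omissions gave from 0.053 (WT replicate 1) to 0.116 (WT replicate 4). *Prdx6*, a peroxiredoxin that reduces lipid peroxides, rose from 253 ± 6.23 to 306 ± 14.4 CPM (log2 fold change 0.27, standard error 0.07, edgeR adjusted p = 0.0475), with all 4 A178D hearts above the WT hearts. It was called in 1 of 7 fits that left out 1 heart, without A178D replicate 4, and the others gave adjusted p from 0.0553 to 0.192. *Cat*, catalase, was at 305 ± 28.9 and 370 ± 21.2 CPM and did not pass (log2 fold change 0.28, edgeR adjusted p = 0.0885). The most abundant per length, *Gpx4*, was at 438 ± 33.4 and 514 ± 49 CPM.

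Water follows solutes, and 21 of 22 genes of cell volume and osmotic regulation were tested. EdgeR and limma-voom called 0 higher and 1 lower, *Stk39*, and DESeq2 0 and 3, with 4 genes at an unadjusted p under 0.05 in edgeR. Of the 21, 14 had values below 0, with a median log2 fold change of -0.139. The median was nearer 0 in the 5 hearts (-0.05), with the length and GC correction (-0.045) and without A178D replicate 4 (-0.08), and further from 0 without A178D replicate 3 (-0.191). Without both libraries edgeR called 0 higher and 2 lower, *Stk39* and *Lrrc8a*, with 7 at an unadjusted p under 0.05. *Stk39*, the kinase that controls cation-chloride cotransporters under the WNK kinases, fell from 154 ± 7.97 to 103 ± 13.5 CPM (log2 fold change -0.58, standard error 0.09, edgeR adjusted p = 0.00726), lower in 4 of 4 A178D hearts than in any WT heart. Leaving out WT replicate 3 gave an adjusted p of 0.0581. *Lrrc8a*, the core subunit of the volume-regulated anion channel, was at 65.1 ± 6.54 and 51.2 ± 5 CPM and did not pass (log2 fold change -0.35, edgeR adjusted p = 0.0678). The most abundant gene, *Wnk1*, was at 744 ± 63 CPM in WT and 678 ± 80.1 in A178D hearts.

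The lists of cardiomyocyte and fibroblast markers were compared in the same way. Of 10 cardiomyocyte genes tested, 1 was called higher and 0 lower by all 3 tools, with 3 at an unadjusted p under 0.05 and a median log2 fold change of 0.003. In the 5 hearts edgeR called 1 higher and 0 lower, with 5 at an unadjusted p under 0.05 and a median of -0.051. Single omissions gave medians from -0.045 (WT replicate 1) to 0.047 (WT replicate 4). The gene was *Mybpc3*, a thick filament protein (log2 fold change 0.30, standard error 0.06, edgeR adjusted p = 0.023), not called without WT replicate 3 (0.111), WT replicate 4 (0.12), A178D replicate 1 (0.0872) or A178D replicate 3 (0.051). *Mb* was the most abundant per length, at 15600 ± 458 and 17400 ± 1490 CPM. The median near 0 covered shifts in both directions. *Actc1*, *Mybpc3* and *Mb* were higher in A178D hearts without overlap (log2 fold changes 0.13, 0.30 and 0.16), and *Myh6* was lower without overlap (-0.11). Of 10 fibroblast genes tested, edgeR and limma-voom called 1 higher and 0 lower and DESeq2 2 and 0, with 4 at an unadjusted p under 0.05 in edgeR and a median of 0.155. In the 5 hearts 2 were called higher (*Col3a1* and *Col1a1*) and 0 lower, with 4 at an unadjusted p under 0.05 and a median of 0.089. The median was 0.095 without WT replicate 1, 0.103 without A178D replicate 1, 0.21 without WT replicate 3 and 0.098 with the length and GC correction. *Col3a1*, a fibrillar collagen, rose from 201 ± 55 to 309 ± 9.62 CPM (log2 fold change 0.62, standard error 0.14, edgeR adjusted p = 0.0317). It was not called without WT replicate 3 (0.113), A178D replicate 1 (0.084), A178D replicate 2 (0.0672) or A178D replicate 3 (0.0712). The fibroblast sums were 2531, 2829 and 2388 CPM in WT and 2951, 2856, 2755 and 2910 CPM in A178D hearts. These sums overlapped, but *Gsn* led them (1370 ± 167 and 1470 ± 53.3 CPM), so their overlap says little about the other genes. Of the 10 genes, 9 had log2 fold changes above 0. *Col1a1*, *Col1a2*, *Col3a1* and *Lum* were higher in A178D hearts without overlap. Such a lack of overlap, in either direction, was seen in 16.1% of all tested genes.

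Shares within the family were computed from the per-length levels. *Aqp1* gave 94.2 ± 1.38% of the per-length sum over 12 aquaporins in WT and 90.4 ± 1.49% in A178D hearts. *Aqp7* gave 4.64 ± 1.3% and 6.58 ± 1.27%, and *Aqp8* gave 0.504 ± 0.244% and 2.43 ± 0.326%. In A178D replicate 2, where *Aqp1* was lowest and *Aqp7* highest, the shares were 88.2 and 8.47%. *Aqp4* gave 0.493 ± 0.143% and 0.349 ± 0.222%, and *Aqp11* gave 0.0538 ± 0.011% and 0.0818 ± 0.0107%. Because *Aqp1* makes up most of this sum, the other shares also move with its level.

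The other 7 aquaporins were low, beside a detection limit taken as 3 counts (0.055 to 0.0926 CPM, depending on the library). *Aqp6* reached 16 counts in a heart and *Aqp2* reached 12. *Aqp12* had 0 counts in all 7 hearts. *Aqp5* had 0 counts in WT hearts and 2, 0, 1 and 0 in A178D hearts. *Mip*, the lens aquaporin, summed to 8 counts in WT and 2 in A178D hearts, and *Aqp9* of liver to 4 and 6. *Aqp3* of epithelia summed to 18 and 4 counts, and *Aqp2* of the kidney collecting duct to 19 and 20. Only *Aqp6* passed the filter, with 20 counts in WT and 41 in A178D hearts, and was not called (log2 fold change 0.76, standard error 0.63, edgeR adjusted p = 0.583). These limits cover counting error only.

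The nearest tested genes on either side of the 5 were measured for comparison. Of these 10, edgeR and limma-voom called 0 and DESeq2 1 (*Kctd1*), with 2 at an unadjusted p under 0.05 by each tool, and edgeR with the length and GC correction also called *Kctd1*. *Aqp8* lies between *Lcmt1*, 31933 bases away (log2 fold change 0.25, standard error 0.08, edgeR adjusted p = 0.159), and *Zkscan2*, 7380 bases away (log2 fold change 0.20, standard error 0.41, adjusted p = 0.859). Around *Aqp1*, *Mindy4* at 16210 bases had a log2 fold change of 0.11 and *Adcyap1r1* at 103423 bases of 0.06. For *Aqp4* the nearest were far off, *Kctd1* at 238050 bases (0.34, edgeR adjusted p = 0.0921) and *Cdh2* at 1177895 bases (0.06). For *Aqp7* they were *Nfx1* at 7081 bases (-0.03) and *Nol6* at 66288 bases (0.14), and for *Aqp11* *Clns1a* at 3210 bases (-0.04) and *Pak1* at 50252 bases (-0.27). *Kctd1*, *Nol6* and *Lcmt1* did not overlap between the genotypes, as was so for 16.1% of all tested genes.

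For each of the 5, the most similar profiles over the 7 hearts were sought among 12211 genes averaging 50 counts or more, by the root mean square difference of centred log2 CPM. For *Aqp8*, whose own spread was 1.02, these were *Ccdc63* (difference 0.272), *Nppa* (0.338) and *Morn4* (0.397), with log2 fold changes of 1.52, 1.31 and 1.12. *Nppa* encodes atrial natriuretic peptide. The *Aqp8* profile is mostly the difference between genotypes that was known when it was chosen. Genes close to it therefore had to be high in A178D hearts too, and nothing was read from their fold changes. For *Aqp1* (spread 0.307) they were *Bcl2l1* (0.0883), *Mcf2l* (0.0951) and *Tmc8* (0.107). *Bcl2l1* encodes the survival protein Bcl-xL. For *Aqp4* (spread 0.838) they were *Cenpf* (0.318), *Hif3a* (0.351) and *Dgkb* (0.364). *Aqp7* (spread 0.119) was closest to *Aig1* (0.0512), *Socs7* (0.0517) and *Pex3* (0.052). *Aqp11* (spread 0.351) was closest to *Pigf* (0.123), *Pigb* (0.145) and *Nupr1* (0.157).

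Promoters of *Aqp1*, *Aqp7*, *Aqp8* and *Aqp11* were taken from RefSeq (GRCm38.p6), as 250 bases before each start, with 2 starts for *Aqp7*. *Aqp4* was left out of this search, so nothing is said of its promoter. They were searched on both strands for the E-box CACGTG, which clock and other basic helix-loop-helix factors bind, and for TATAAA. Of 32851 promoters of this length, 6.02% held CACGTG and 12.4% TATAAA, and these motifs do not overlap each other. TATAAA was in none of the 4 genes' windows and CACGTG in that of *Aqp8* alone, 75 bases before its start. A match describes letters and not a bound site. The windows of *Aqp8* and *Aqp1*, the member with the highest fold change and the most abundant member, are printed to show their composition, with CACGTG in capitals. *Aqp8* (chr7:123462044-123462293, plus strand) has 52.4% GC and *Aqp1* (chr6:55336049-55336298, plus strand) 62%, each with 5 CpG.
Aqp8: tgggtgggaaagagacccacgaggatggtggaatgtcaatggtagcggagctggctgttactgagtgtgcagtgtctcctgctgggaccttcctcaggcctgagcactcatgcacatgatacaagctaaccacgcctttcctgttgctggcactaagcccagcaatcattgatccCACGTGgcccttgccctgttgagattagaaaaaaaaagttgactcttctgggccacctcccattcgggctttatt
Aqp1: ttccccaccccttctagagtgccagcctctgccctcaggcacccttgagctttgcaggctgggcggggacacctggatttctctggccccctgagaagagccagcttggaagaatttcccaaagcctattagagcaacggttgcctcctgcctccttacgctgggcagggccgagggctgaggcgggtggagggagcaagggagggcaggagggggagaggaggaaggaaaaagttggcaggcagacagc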

How the data were processed

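The authors sequenced stranded poly(A) libraries from both ends and deposited raw counts per gene. The submitters' processing notes name bcl2fastq 2.18.0.12, HISAT2 2.1.0, SAMtools 1.6, DESeq2 1.26.0 and GRCm38, while the counting program and annotation are not given in the sources used here. Their DESeq2-normalised table was not used here. Of 21257 entries, 442 in 219 sets had identical counts (at least 30 summed) and each set was counted once. In all, 20927 genes were kept, of which 20858 were named through GENCODE M21. The sets account for only part of the entries removed, and the rest are not itemised here. A178D was compared with WT hearts by edgeR 4.0.16 in R 4.3.3 (TMM, quasi-likelihood test, genes reaching 10 counts in 3 or more libraries, adjusted p under 0.05). These steps were also run on simulated data holding 200 changed genes, and the outcome is not given here. The simulated counts held no trend with transcript length, so they do not cover the trends of WT replicate 1 and A178D replicate 4.

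Members and lists were chosen with earlier results of these data known. The genes named are the members, the other aquaporins, called genes (up to 10) and the most abundant gene of each list, nearest tested neighbours, and the 3 most similar profiles. Other list genes (such as *Gk*, *Cat*, *Lrrc8a* and marker genes at or near 0 or without overlap, and genes called only in alternatives) were named after their values were seen. Alternatives were DESeq2 1.42.0, DESeq2's size factors, limma-voom (limma 3.58.1), other filters on low counts, the table as deposited, a replicate block, offsets for length and GC (mgcv 1.9.3, basis size 6), the longest transcript as length for shares, and leaving out each library.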

Additional observations from a re-analysis of the deposited data

Results flagged for a closer look

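In groups of 4 A178D hearts, 1 heart lay far from the other 3 in 6 of 56 groups examined, where chance flags about 1 in 20 groups. These groups are not independent, since the shares of *Aqp1* and *Aqp7* are parts of the same sum. The count therefore cannot show an excess over chance. The share of *Aqp1* in the aquaporin sum was 88.2% in A178D replicate 2, below the other A178D hearts. The share of *Aqp7* was 8.47% in the same heart, above the others. *Col3a1* was at 324 CPM in A178D replicate 2, above the others. *Gpd1* was at 104 CPM in A178D replicate 2, below the others. *Mybpc2* was at 34.7 CPM in A178D replicate 1, above the others. *Wnk1* was at 559 CPM in A178D replicate 4, below the others.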

How the results depend on the processing

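The log2 fold changes of *Aqp1*, *Aqp4*, *Aqp7* and *Aqp8* kept their sign in 16 of 16 alternatives, and all 5 moved by less than the spread between hearts. Over the fits that omitted a single heart they ranged from -0.60 to -0.35 for *Aqp1*, -1.31 to -0.77 for *Aqp4*, 0.04 to 0.19 for *Aqp7*, 1.71 to 2.15 for *Aqp8* and 0.00 to 0.44 for *Aqp11*. The value of *Aqp11* was -0.07 without WT replicate 1 and A178D replicate 4 together. The genes called higher (145) numbered 306 with DESeq2, and those called lower (182) numbered 380 with DESeq2 and 284 with length and GC offsets. With 1 heart left out, 22 to 215 were higher and 31 to 238 lower, lowest without WT replicate 3 and highest without WT replicate 1. Leaving out WT replicate 1 and A178D replicate 4 together, an alternative chosen after seeing the data, gave 353 higher and 407 lower. Another alternative added after seeing the data, hearts 1, 3 and 4 with no block, was dropped because it is the same fit as leaving out A178D replicate 2 (115 lower). The cause of these differences was not tested. The share of *Aqp11* was 0.112% by the longest transcript and 0.0698% by exonic bases, since its exonic bases exceed its longest transcript.

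Replicate numbers did not pair the hearts (correlations of deviations 0, -0.04 and -0.04 for numbers 1, 3 and 4). With the replicate block 128 genes were higher and 150 lower, and the log2 fold changes were -0.34 for *Aqp1*, -1.31 for *Aqp4*, 0.10 for *Aqp7*, 2.05 for *Aqp8* and 0.39 for *Aqp11*. Among the list genes called with all hearts, *Flt1*, *Sox17*, *Mybpc3*, *Prdx6*, *Gpd1* and *Cnn1* were not called with this block. *Myh11*, *Acta2*, *Tagln*, *Lmod1*, *Mylk*, *Plin2*, *Plin5*, *Col3a1* and *Stk39* still were. *Aqp11* rested on 174 counts in WT and 228 in A178D hearts in all.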
